A study of Mus musculus with 8 samples.

Results

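Transcripts of fatty acid oxidation were examined as 32 genes out of the 24532 genes with deposited values, 20 acting in mitochondria and 12 acting in or at peroxisomes. The members were taken by gene symbol for their role in the pathway, and all 32 were present in every file. RNA came from liver and subcutaneous fat, taken from male C57BL/6 mice on a high-fat diet (HFD), which according to the labels began at 6 weeks of age and lasted 19 weeks, with an age of 24 weeks given for every sample. MKRN1, an E3 ubiquitin ligase, was missing from the whole body in the MKRN1-null mice, and WT littermates served as controls. Each genotype gave 2 libraries per tissue, so that 8 poly(A) libraries were available. All groups had received the HFD, and because MKRN1 was lost in every tissue, an effect within liver or fat cannot be told apart from one that began elsewhere in the animal.

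Fatty acids enter mitochondria as carnitine esters through the carnitine shuttle and are then shortened in repeated cycles of oxidation, hydration, a further oxidation and thiolysis, and the electrons released pass to the respiratory chain. Peroxisomes take up very long-chain and branched fatty acids through ABC transporters, shorten them by a parallel set of enzymes, and hand the products on as carnitine esters. Both pathways are prominent in liver, where many of their genes respond to the fatty acid-activated receptor PPARα. In white fat the pathway works beside storage, and in muscle and brown fat mitochondrial oxidation is the dominant fate of fatty acids.

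Expression was read as FPKM, in which fragments are scaled to the length of the transcript and the depth of the library. Depth was between 5.72 and 9.24 aligned gigabases per library. Mkrn1 was at 9.42 and 10.1 FPKM in the WT livers against 2.86 and 2.21 in the MKRN1-null livers, and at 16.8 and 19.3 FPKM in WT fat against 4.58 and 2.90 in MKRN1-null fat, so every library followed its label. Liver and fat carried their defining markers: 8 hepatocyte genes summed to between 55814 and 69991 FPKM in the livers and 8 adipocyte genes to between 22815 and 47485 FPKM in the fat libraries. MKRN1-null fat replicate 2 stood apart. It held 119429 FPKM in 17 skeletal muscle markers, where the other fat libraries held 87.99 to 397 FPKM. Its 8 brown or beige fat markers summed to 931 FPKM, against 60.4 to 106 FPKM in the other fat libraries. Of that sum Cox8b held 489 FPKM and Ucp1 32.6 FPKM. The same 8 genes summed to between 31.1 and 186 FPKM in the livers, so their sum is not specific to brown or beige fat. The markers did not move together, since 2 of the 5 tested in fat were below both WT libraries in both MKRN1-null libraries. Members in fat are therefore described library by library. As all samples were pieces of tissue, fewer cells of a type and less RNA per cell cannot be told apart.

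In WT liver the most abundant member per transcript length was Acaa1b, a peroxisomal thiolase that performs the final cleavage of the cycle, at 1781 and 1858 FPKM. It was followed by the mitochondrial thiolase Acaa2 at 634 and 705 FPKM. Hadh, the mitochondrial hydroxyacyl-CoA dehydrogenase for shorter chains, stood at 300.4 and 298 FPKM. Acaa1b alone supplied 58.3% and 59.2% of the summed FPKM of the 12 peroxisomal members in the WT livers. In WT fat the order was different, with the electron transfer flavoprotein subunit Etfb first at 333 and 356 FPKM and the medium-chain dehydrogenase Acadm next at 276 FPKM in both libraries. Acaa1b ranked 20 of 32 in WT fat, at 62.1 and 64.1 FPKM. The member with the lowest level in WT liver was Cpt1b, the muscle form of the outer carnitine palmitoyltransferase, at 3.29 and 2.72 FPKM, and in WT fat it was the peroxisomal thioesterase Acot3, listed at 0 and 0.0327 FPKM. The plot of all members by library shows these levels and how closely most replicate pairs lay.

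**Figure D1:**
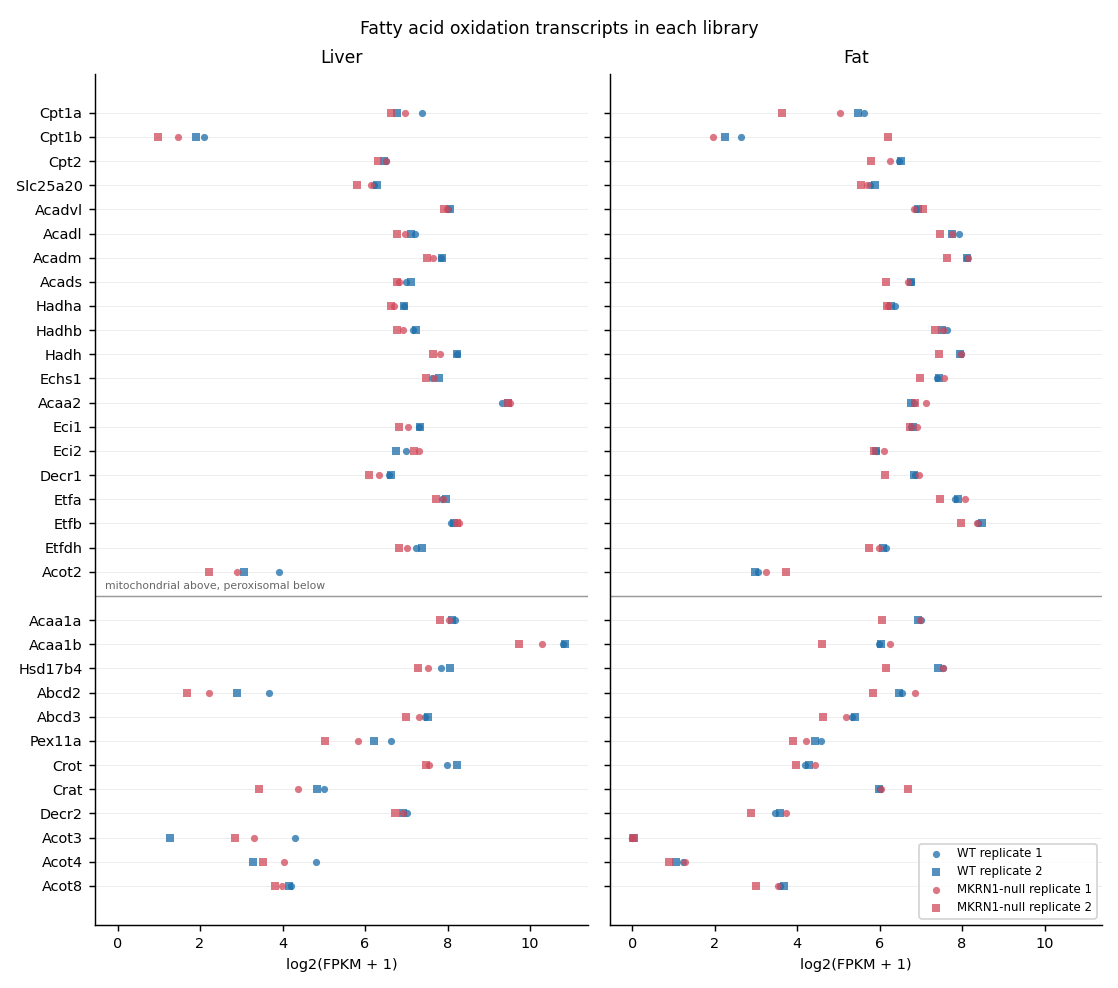
Level of each of the 32 members on the log2(FPKM + 1) scale, with liver on the left and fat on the right, blue for WT and red for MKRN1-null, and circles and squares for replicates 1 and 2. In liver most red points lie left of the blue ones, and in fat the red squares (MKRN1-null replicate 2) stand apart, with Cpt1b at 72.2 FPKM.

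The first comparison asked whether loss of MKRN1 altered oxidation transcripts in the liver of mice on the HFD. Few members passed the test. In summed level the 12 peroxisomal members came to 3055 and 3137 FPKM in the WT livers and to 2279 and 1717 FPKM in the MKRN1-null livers, with Acaa1b, which did not pass (adjusted p = 0.0518), as the largest part. Without Acaa1b the sums were 1274 and 1279 FPKM against 1030 and 862 FPKM. The 20 mitochondrial members summed to 3529 and 3612 FPKM against 3401 and 3112 FPKM. The genotypes did not overlap in any of these sums. Among all tested genes, 57.5% were likewise below both WT libraries in both MKRN1-null libraries. The sums are by FPKM as deposited and were not rescaled, and on that scale the median log2 fold change of all tested genes was -0.17. The peroxisomal sum as a ratio to the mitochondrial sum was 0.866 and 0.868 in WT livers and 0.670 and 0.552 in MKRN1-null livers.

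**Figure D2:**
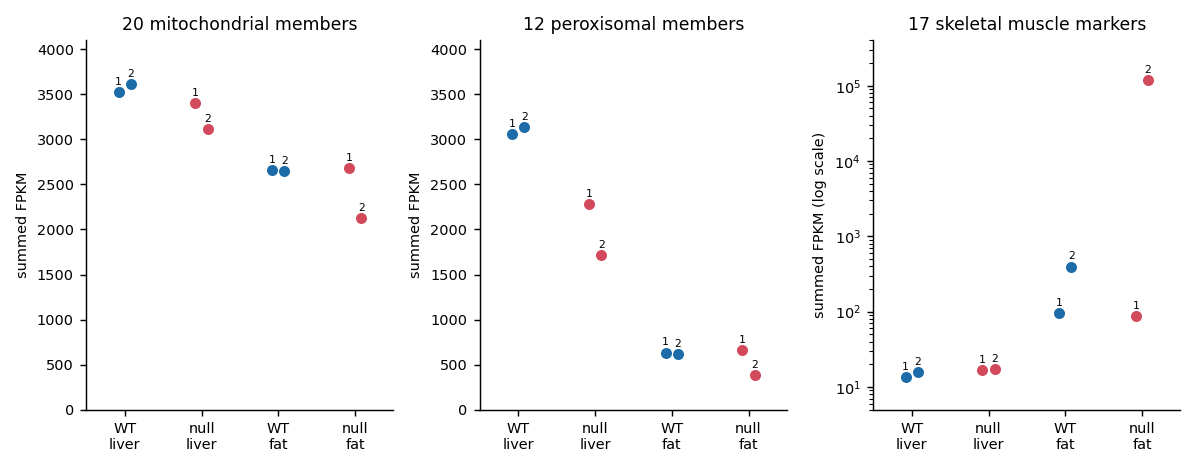
Summed FPKM of the 20 mitochondrial members, the 12 peroxisomal members and 17 skeletal muscle markers (log scale) in each library, with replicate numbers beside the points, blue for WT and red for MKRN1-null. The peroxisomal sums of the genotypes do not overlap in liver (3055 and 3137 against 2279 and 1717 FPKM), and MKRN1-null fat replicate 2 had the lowest member sums of all fat libraries and 119429 FPKM of muscle markers.

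3 members fell in MKRN1-null liver at an adjusted p under 0.05: Hadh of the mitochondrial set, and Crot and Abcd2 of the peroxisomal set. These are 1 of 20 and 2 of 12, and no member rose. Among all 10822 genes tested in liver, 16.9% fell and 2.51% rose by the same rule, so the members were not called more often than other genes. By the study limits, limma p up to 0.05 before adjustment and a log2 fold change of 0.58 or more in size, 6 members were lower (Cpt1b, Acaa1b, Abcd2, Pex11a, Crot and Crat) and none was higher, against 13.4% lower and 2.25% higher of all tested genes. Both MKRN1-null libraries lay below both WT libraries for 22 members and above them for 3, against 57.5% and 11.8% of all tested genes. The median log2 fold change was -0.28 over the mitochondrial and -0.44 over the peroxisomal members, beside -0.17 over all tested genes.

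The scale of the whole transcriptome bears on these values. When the libraries were scaled by the median of ratios, the median of all tested genes moved from -0.17 to 0.00, and that of the mitochondrial and peroxisomal members to -0.07 and -0.23. On that scale Hadh (log2 fold change -0.29, adjusted p = 0.127), Crot (-0.39, adjusted p = 0.115) and Abcd2 (-1.15, adjusted p = 0.0829) no longer passed, and a different member, Eci2, passed as higher. All 10822 genes then split into 4.07% higher and 7.43% lower. The directions of Hadh, Crot, Abcd2 and Eci2 were kept on that scale, as the plot of liver fold changes shows.

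**Figure D3:**
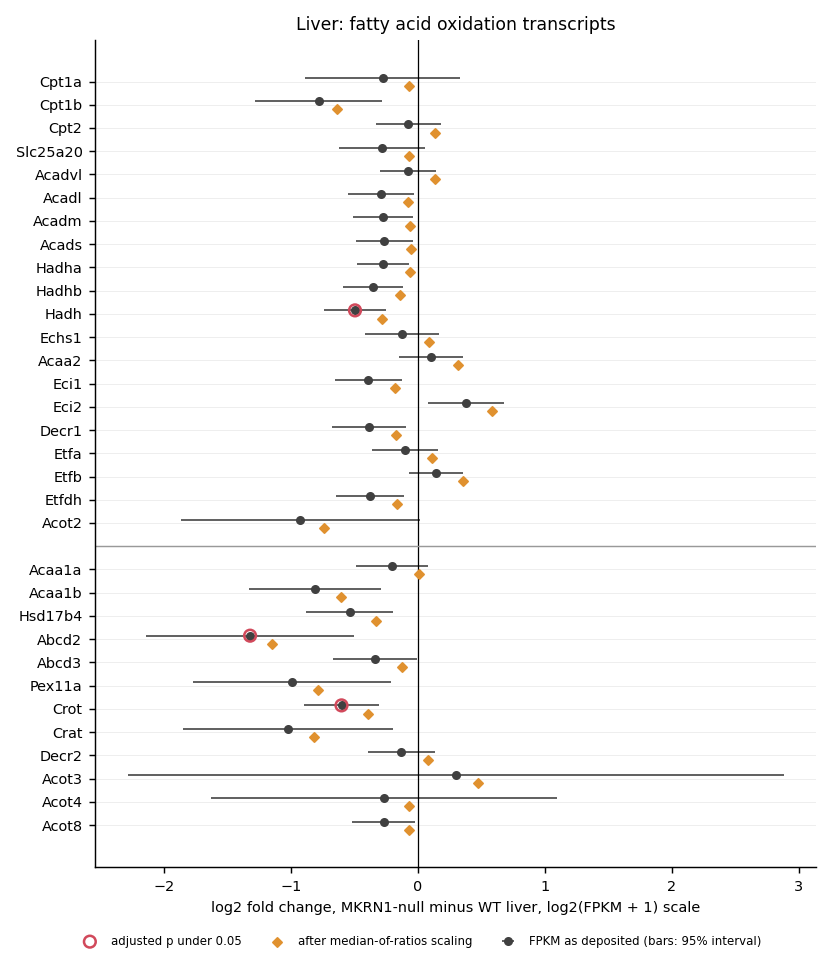
Log2 fold change of each member in liver (MKRN1-null minus WT, on the log2(FPKM + 1) scale), with 95% intervals in black and the value after median-of-ratios scaling as orange diamonds. Red rings mark Hadh, Abcd2 and Crot, the members with an adjusted p under 0.05. The diamonds lie to the right of the black points for every member.

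Among the carnitine shuttle genes of mitochondria, Cpt1a, the liver form of the rate-controlling palmitoyltransferase, was at 165 and 109 FPKM in WT livers and 125 and 97.4 FPKM in MKRN1-null livers, so its groups overlapped (log2 fold change -0.28, 95% interval -0.89 to 0.33). Cpt1b was at 3.29 and 2.72 FPKM in WT livers and 1.74 and 0.967 FPKM in MKRN1-null livers, with no overlap (log2 fold change -0.78 ± 0.19 SE, limma adjusted p = 0.0520). Cpt1b (chr15:89416405-89425862 in mm10) lies inside an annotated readthrough transcript with the upstream gene, Gm44502, which was given no more than 0.984 FPKM in any of the 8 libraries. Cpt2, the inner membrane transferase, was at 89.4 and 87.5 FPKM in WT livers and 89.7 and 78.3 FPKM in MKRN1-null livers. The carrier Slc25a20 was at 73.8 and 77.4 FPKM against 69.4 and 55.2 FPKM. The interval of neither Cpt2 (-0.33 to 0.18) nor Slc25a20 (-0.62 to 0.05) left out 0.

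The acyl-CoA dehydrogenases, which perform the first oxidation for very long (Acadvl), long (Acadl), medium (Acadm) and short chains (Acads), were all lower in both MKRN1-null livers, and none passed the test. Their log2 fold changes were between -0.29 and -0.08. Acadm, for example, was at 227 and 232 FPKM in WT livers and 199.8 and 179 FPKM in MKRN1-null livers (log2 fold change -0.28, adjusted p = 0.0942). After median-of-ratios scaling Acadl, Acadm and Acads stayed negative, at -0.08, -0.07 and -0.06, and Acadvl became positive, at 0.13.

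The enzymes of hydration, second oxidation and thiolysis held the single mitochondrial call. Hadh (chr3:131233420-131272101) was at 300.4 and 298 FPKM in WT livers and 224 and 199 FPKM in MKRN1-null livers. The 2 groups were well apart and the fall was -0.50 ± 0.09 (SE) on the log2 scale, with a limma adjusted p of 0.0319. The subunits of the trifunctional protein for long chains, Hadha and Hadhb, were at 123 FPKM in both WT livers against 104 and 98.4, and at 143 and 151 FPKM against 120 and 109 FPKM (log2 fold changes -0.28 and -0.36, adjusted p = 0.0680 and 0.0556). The hydratase Echs1 overlapped between genotypes. Acaa2 was at 726 and 710 FPKM in MKRN1-null livers against 634 and 705 FPKM and did not pass (log2 fold change 0.10, 95% interval -0.15 to 0.36, adjusted p = 0.480). Of the thiolases of the 2 organelles, Acaa1b was at 2.81 and 2.63 times the FPKM of Acaa2 in the WT livers and 1.72 and 1.20 times in the MKRN1-null livers.

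The auxiliary enzymes, which prepare unsaturated fatty acids for the cycle, did not move together. The isomerase Eci1 was at 159 and 161 FPKM in WT livers and 131 and 113 FPKM in MKRN1-null livers (log2 fold change -0.39, adjusted p = 0.0587), and the reductase Decr1 was at 95.1 and 97.7 against 80.4 and 67.2 FPKM (-0.39, adjusted p = 0.0707). The related isomerase Eci2 was at 126 and 107 FPKM in WT livers and 157 and 145 FPKM in MKRN1-null livers. Eci2 was the only member whose log2 fold change was above 0.3, at 0.37 ± 0.11 (SE). It did not pass the main test (adjusted p = 0.0807) and passed after median-of-ratios scaling (log2 fold change 0.59, adjusted p = 0.0402). Its adjusted p was between 0.0402 and 0.304 over 13 alternatives.

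Electron transfer genes were split as well. Etfdh, which passes electrons to ubiquinone, was at 150.2 and 164 FPKM in WT livers and 128 and 113 FPKM in MKRN1-null livers (log2 fold change -0.38, adjusted p = 0.0641). Etfb was at 270 and 283 FPKM against 310 and 301 FPKM (0.14, adjusted p = 0.256), and Etfa overlapped. The mitochondrial thioesterase Acot2, which releases free fatty acids from acyl-CoA, was at 13.97 and 7.36 FPKM in WT livers and 6.47 and 3.62 FPKM in MKRN1-null livers. Its replicates differed by 1.90 times in WT and 1.79 times in MKRN1-null livers, and its log2 fold change of -0.93 did not pass (adjusted p = 0.129).

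Among the peroxisomal members, the ABC transporters that import fatty acids were both lower in MKRN1-null livers. Abcd2 (chr15:91145871-91191807) was at 11.7 and 6.45 FPKM in WT livers and 3.68 and 2.22 FPKM in MKRN1-null livers. It fell by 1.32 ± 0.31 (SE) on the log2(FPKM + 1) scale, with a limma adjusted p of 0.0485. The far more abundant Abcd3 was at 174 and 183 FPKM in WT livers and 157 and 126 FPKM in MKRN1-null livers (-0.34, adjusted p = 0.122). Pex11a, which promotes the division of peroxisomes, was at 97.8 and 73.5 FPKM against 55.8 and 31.6 FPKM (-0.995 ± 0.30, adjusted p = 0.0777).

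Among the core enzymes, Acaa1b and Hsd17b4, the bifunctional enzyme for very long and branched chains, had the lowest adjusted p. Acaa1b was at 1781 and 1858 FPKM in WT livers and 1249 and 854 FPKM in MKRN1-null livers, and the groups did not overlap (log2 fold change -0.82 ± 0.20 SE, adjusted p = 0.0518). Hsd17b4 was at 228 and 267 FPKM against 185 and 156 FPKM (-0.54 ± 0.13, adjusted p = 0.0510). Neither passed the main test, and the adjusted p of Acaa1b was between 0.0347 and 0.439 and that of Hsd17b4 between 0.0288 and 0.531 over 13 alternatives. The second peroxisomal thiolase, Acaa1a, was at 287 and 273 FPKM in WT livers and 262 and 225 FPKM in MKRN1-null livers (-0.20, adjusted p = 0.226), and the reductase Decr2 overlapped. Acaa1b as a ratio to Acaa1a was therefore 6.20 and 6.80 in WT livers and 4.76 and 3.80 in MKRN1-null livers.

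Acaa1a and Acaa1b are near copies of each other in their coding sequences, where only a few bases tell them apart. Their untranslated regions were not compared. Their coding sequences of 1275 bases are identical at 1231 positions (96.5%), with an unbroken identical run of 327 bases, in the mouse transcripts of GENCODE vM21 (GRCm38, the assembly of mm10). The opening 90 coding bases are shown because their identity is close to that of the whole, with the 3 positions that differ in capitals. The stretch of Acaa1a lies at chr9:119341515-119341604 on the plus strand and that of Acaa1b at chr9:119156905-119156994 on the minus strand.

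Acaa1a: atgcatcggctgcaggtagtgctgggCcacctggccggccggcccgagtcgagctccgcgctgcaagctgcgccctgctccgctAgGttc
Acaa1b: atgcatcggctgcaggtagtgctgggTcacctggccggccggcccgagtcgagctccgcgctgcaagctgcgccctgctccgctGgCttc

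Reads from the identical runs could have been assigned to either gene, so the levels of Acaa1a and Acaa1b are uncertain, also in their ratio. The thioesterases of the Acot family are less alike. Acot3 and Acot4 share 73.8% of aligned coding positions with a longest identical run of 111 bases, and Acot2 and its cytosolic relative Acot1, not a member, share 86.0% with a run of 273 bases. By contrast, Cpt1a and Cpt1b share 68.0% with no identical run longer than 20 bases.

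The carnitine acyltransferases that prepare products for export from peroxisomes both lay below WT in both MKRN1-null livers, and Crot passed the test. Crot, the octanoyltransferase (chr5:8966048-8997146), was at 253 and 301 FPKM in WT livers and 186 and 177 FPKM in MKRN1-null livers. It fell by 0.60 ± 0.11 (SE) on the log2 scale, with a limma adjusted p of 0.0315. Crat, the acetyltransferase, which is also found in mitochondria, was at 31.2 and 27.8 FPKM against 19.7 and 9.80 FPKM (-1.03 ± 0.32, adjusted p = 0.0826).

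Of all members, Acot3 and Acot4 varied most between the WT livers. Acot3 was at 18.6 and 1.404 FPKM in the WT livers, 13.2 times apart, and at 8.88 and 6.20 FPKM in the MKRN1-null livers. Acot4 was at 26.9 and 8.73 FPKM against 15.4 and 10.4 FPKM. For both, the MKRN1-null libraries lay between the WT libraries, and the intervals (-2.29 to 2.88 and -1.63 to 1.10) covered large changes either way. The values of Acot3 came from 2 transcripts, of which NM_134246 was at 18.6 and 0.293 FPKM in WT livers and 6.95 and 0.445 FPKM in MKRN1-null livers. Acot8 was steadier, at 17.5 and 16.7 FPKM against 14.9 and 13.2 FPKM (-0.27, adjusted p = 0.108).

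Replicates in liver differed in one direction for some members. In WT livers replicate 1 exceeded replicate 2 by more than 1.5 times for Cpt1a, Acot2, Abcd2, Acot3 and Acot4. By any amount, it was the higher there for 16 of the 32 members and for 60% of all tested genes. In MKRN1-null livers replicate 1 was the higher for all 32 members, whereas 50.4% of all tested genes were higher in that library. The largest gaps there were in Crat (2.01 times), Cpt1b (1.80 times), Acot2 (1.79 times) and Pex11a (1.77 times).

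The 3 calls in liver were mostly lost in fits with 1 library fewer. Hadh passed in none of the 4 fits (adjusted p 0.0742 to 0.160) while its log2 fold change stayed between -0.58 and -0.41. Abcd2 passed only without WT replicate 2 and Crot only without WT replicate 1 (adjusted p up to 0.191 and 0.156 in the other 3 fits of each), with log2 fold changes of -1.71 to -0.94 and -0.73 to -0.48. The share of all tested genes that fell was 4.11% and 10.3% without WT replicates 1 and 2, and 3.24% and 0.456% without MKRN1-null replicates 1 and 2. Markers of other cell types also differed between the livers: 6 macrophage markers summed to 137 and 90.7 FPKM in WT livers and 44.0 and 46.5 FPKM in MKRN1-null livers, 6 stellate or fibroblast markers to 222 and 163 against 62.5 and 66.4 FPKM, 8 hepatocyte markers to 62552 and 55814 against 68309 and 69991 FPKM, with none of these markers at 0, and the part of these in the member results was not tested.

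The rest of the pathway in liver was read from lists of related genes. Their counts stand beside 16.9% lower and 2.51% higher of all 10822 genes tested in liver by the adjusted rule. Of 20 further mitochondrial oxidation genes tested, 4 fell and 2 rose: the thioesterase Acot9 fell most, from 5.05 and 4.60 to 1.51 and 1.35 FPKM (log2 fold change -1.26, adjusted p = 0.00976), followed by Acad12 (-0.97, adjusted p = 0.0119) and Acad10 (-0.66, adjusted p = 0.0172). Acacb, which makes the inhibitor of the carnitine shuttle, was past the study limits only, at 20.6 and 16.7 FPKM in WT against 11.96 and 5.83 FPKM (-1.05), as was the acyl-CoA synthetase Acsl5 (-0.78). Acadsb, a dehydrogenase of branched short chains, rose from 23.5 and 25.5 to 35.2 and 39.5 FPKM (0.59, adjusted p = 0.0250), and the synthetase Acsl1 rose from 248 and 251 to 344 and 354 FPKM (0.48, adjusted p = 0.0247). Of 22 further peroxisomal oxidation genes tested, 3 fell and 1 rose. Ehhadh, the second peroxisomal bifunctional enzyme, fell from 129.9 and 112 to 69.2 and 67.0 FPKM (-0.81, adjusted p = 0.0171), and Acnat2 fell from 31.1 and 27.5 to 12.2 and 11.3 FPKM (-1.25, adjusted p = 0.00976). Pecr, a reductase, rose from 118 and 135 to 178 FPKM in both libraries (0.49, adjusted p = 0.0345), and Nudt7, a peroxisomal CoA hydrolase, was past the study limits only, at 176 and 286 FPKM in WT against 383 and 592 FPKM (1.08). Ehhadh and Acnat2 also passed after median-of-ratios scaling (adjusted p = 0.0311 and 0.0153), unlike the 3 members above. They were the only 2 of the 22 that passed as lower on that scale. Another 3 passed as higher, among them Pecr (limma adjusted p = 0.0289). Of the 20 further mitochondrial genes, 3 passed as lower and 3 as higher on that scale. Among them were Acot9, Acad12, Acad10, Acadsb and Acsl1, with limma adjusted p from 0.0148 (Acot9) to 0.0364 (Acad10). Of all tested genes, 7.43% were lower and 4.07% higher on that scale.

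Ketone bodies are made in liver mitochondria from the product of fatty acid oxidation. Of 5 genes for making or using ketone bodies 4 fell, among them Bdh1, from 166 and 157 to 118 and 94.7 FPKM (-0.61, adjusted p = 0.0393), and Acat1 (-0.45, adjusted p = 0.0457). Another of the 4, Oxct1, fell from 1.77 and 1.61 to 0.778 and 0.776 FPKM (-0.60, limma adjusted p = 0.0256), close to the filter of 1 FPKM. After median-of-ratios scaling 1 of these 5, Oxct1, still passed. Of 17 citric acid cycle genes 5 fell, led by citrate synthase, Cs, from 68.5 and 84.3 to 48.1 and 38.8 FPKM (-0.80, adjusted p = 0.0329), and none of the 17 passed after that scaling. Of 15 peroxisome biogenesis genes 1 fell, and so did 1 of 7 genes of omega oxidation, Aldh3a2 (-1.06, adjusted p = 0.0247). By the same rule 16.9% of all genes tested in liver fell.

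Of 10 regulators, only Pparg, the nuclear receptor of fat storage, changed by the adjusted rule, from 17.6 and 19.8 to 6.36 and 4.48 FPKM (-1.63, adjusted p = 0.0135). That rule called 16.9% of all genes tested in liver lower and 2.51% higher. Ppara, the receptor for which many of the members are target genes, was at 60.1 and 46.5 FPKM in WT livers and 60.1 and 48.2 FPKM in MKRN1-null livers (log2 fold change 0.02). The coactivator Ppargc1a was at 1.68 and 1.18 FPKM against 0.921 and 0.784 FPKM (-0.38, adjusted p = 0.115). The phosphatase Lpin1, a partner of PPARα, was past the study limits only, at 10.4 and 7.201 FPKM in WT against 14.9 and 23.8 FPKM (1.04, adjusted p = 0.0581).

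The second comparison asked the same in subcutaneous fat, and no member passed the test. None of 20 mitochondrial and none of the 11 tested peroxisomal members passed in limma, and none had an unadjusted p under 0.05, while 0% of the 12164 tested genes passed the adjusted rule and 785 had an unadjusted p under 0.05. By the study limits no member passed either, against 5.36% lower and 0.707% higher of all tested genes. Both MKRN1-null libraries lay below both WT libraries for 10 members and above them for 3, against 36.1% and 9.03% of all tested genes. Acot3 was at most 0.0327 FPKM in fat and was not tested.

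The MKRN1-null fat libraries lay far apart, as the plot of fat by library shows. In replicate 1 the median difference from the WT mean was -0.05 log2 units over the mitochondrial and 0.06 over the peroxisomal members. In replicate 2 the same medians were -0.38 and -0.64, beside -0.38 over all tested genes. In replicate 2, 16 of 20 mitochondrial and 10 of 11 peroxisomal members were below both WT libraries, as were 71.1% of all tested genes. In replicate 1, 9 and 3 members were below both, as were 44.8% of all tested genes, and 9 and 7 were above both, as were 30.2%.

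**Figure D4:**
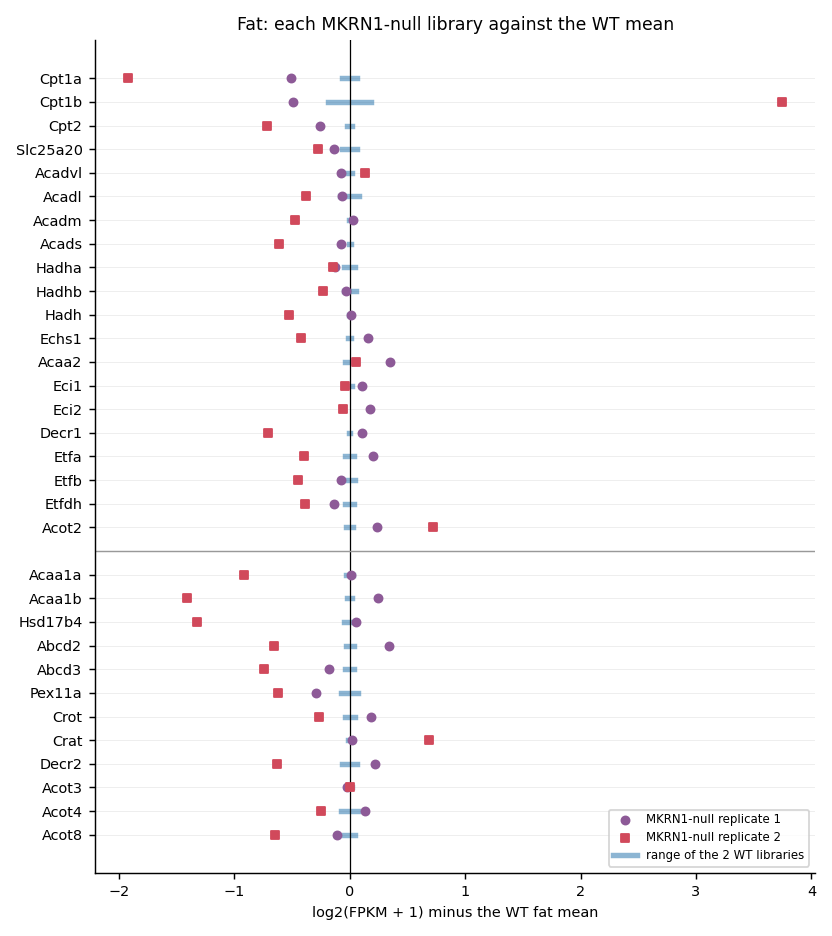
Difference of each MKRN1-null fat library from the mean of the WT fat libraries on the log2(FPKM + 1) scale, with the range of the 2 WT libraries as blue bars. Replicate 1 (purple circles) lies near the WT range for most members, and replicate 2 (red squares) lies left of it for most, with Cpt1b at 3.75 log2 units to the right.

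Against that direction, 4 mitochondrial members (Cpt1b, Acadvl, Acaa2 and Acot2) and 1 peroxisomal member (Crat) were above both WT libraries in replicate 2, as were 20.6% of all tested genes. Cpt1b was at 5.20 and 3.78 FPKM in WT fat, 2.88 in MKRN1-null replicate 1 and 72.2 FPKM in replicate 2. Crat was at 63.9 and 62.8 FPKM in WT fat, 64.4 in replicate 1 and 103 FPKM in replicate 2, and it made up 26.7% of the peroxisomal sum there against 9.72% to 10.3% in the other fat libraries. Acot2 was at 7.23 and 6.88 FPKM in WT fat, 8.49 in replicate 1 and 12.3 FPKM in replicate 2. In the same library the sums of the muscle and of the brown or beige fat markers were high, as given above. In the fat libraries 1 to 4 of the 17 muscle markers were listed at 0. Hepatocyte markers summed to 46.0 and 79.6 FPKM in WT fat and to 463 and 302 FPKM in MKRN1-null fat, of which Cyp2e1 alone held 40.3, 72.7, 451 and 278 FPKM. The part of muscle or liver transcripts in these values was not tested.

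Most other members were lowest in that library. Cpt1a was at 47.9 and 43.6 FPKM in WT fat and at 31.9 and 11.3 FPKM in MKRN1-null fat, below WT in both libraries (log2 fold change -1.21, adjusted p = 0.680). The ratio of Cpt1a to Cpt1b was 9.22 and 11.5 in WT fat, 11.1 in MKRN1-null replicate 1 and 0.157 in replicate 2. Hsd17b4 was at 184 and 171 FPKM in WT fat, 185 in replicate 1 and 70.3 FPKM in replicate 2, and Acaa1b was at 62.1 and 64.1 FPKM, 75.1 and 23.1 FPKM. Acaa2 was the other member, beside Acot2 and Crat, that was above both WT libraries in both MKRN1-null libraries, at 140 and 114 FPKM against 113 and 107 FPKM.

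Leaving out MKRN1-null replicate 1, so that replicate 2 stood alone for the genotype and was assumed to vary like the WT pair, 11 mitochondrial and 9 peroxisomal members passed, 17 as lower and 3 (Cpt1b, Acot2 and Crat) as higher. In that fit 43.7% of all tested genes passed as lower and 8.81% as higher. Leaving out replicate 2 in place of it, no member passed, and of all tested genes 0.0166% passed as lower and 0.0083% as higher. Rescaling FPKM after removal of the muscle markers moved the median of all genes from -0.20 to -0.05 and left no member past the threshold. Of the related genes named above, Ehhadh was at 19.2 and 16.6 FPKM in WT fat against 20.5 and 17.6 FPKM in MKRN1-null fat (0.09, adjusted p = 0.879), and Ppara at no more than 1.80 FPKM in any fat library. Ppargc1a was at 0.815 and 0.809 FPKM in WT fat and 0.718 and 2.90 FPKM in MKRN1-null fat, the higher value again in replicate 2. None of the genes tested in fat from the further mitochondrial (21), further peroxisomal (18), peroxisome biogenesis (15), ketone body (4), regulator (9), citric acid cycle (17) and omega oxidation (1) lists passed either rule.

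The third comparison tested whether the effect of genotype differed between the tissues. Of 31 members tested none passed the interaction of tissue and genotype in limma, and 0% of the 9917 genes tested passed, of which 766 had an unadjusted p under 0.05. Unadjusted, 2 members had a p under 0.05, Acot2 (liver minus fat -1.41 ± 0.49 SE, adjusted p = 0.584) and Crat (-1.38 ± 0.49, adjusted p = 0.587), and both met the study limits, as did 3.9% of all genes in that direction and 2.57% in the other. Both were below WT in liver and above it in fat, where MKRN1-null replicate 2 held the highest value of each. Of the members that fell in liver, Abcd2 was at 92.2 and 87.8 FPKM in WT fat, 114 in MKRN1-null replicate 1 and 56.7 FPKM in replicate 2, so these lay on opposite sides of WT. Crot did likewise, at 17.3 and 18.4 FPKM in WT fat, 20.5 in replicate 1 and 14.7 FPKM in replicate 2. Their interactions of -1.17 and -0.56 did not pass (adjusted p = 0.704 and 0.717).

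The fourth comparison set WT liver against WT fat, to give the normal distribution of the members between the tissues on the HFD. By FPKM, 21 members were higher in liver and 7 higher in fat at an adjusted p under 0.05, against 17.9% and 62.3% of the 12799 tested genes. Scale matters more here, since the median of all genes was -0.59 (liver minus fat) by FPKM and 0.01 after median-of-ratios scaling. On the second scale 27 members were higher in liver and 2 higher in fat (Abcd2 and Crat), against 34.3% and 34.3% of all genes. Values below are by FPKM, and the direction is named only where both scales gave it.

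**Figure D5:**
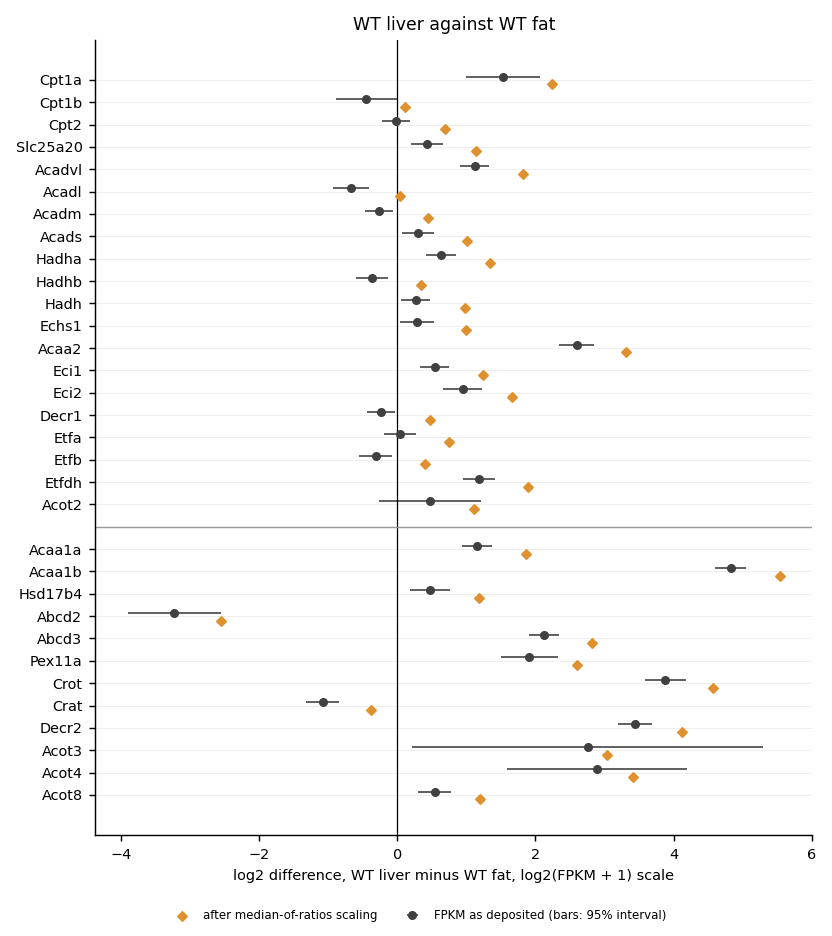
Log2 difference of each member between WT liver and WT fat (positive values are higher in liver), with 95% intervals in black and the value after median-of-ratios scaling as orange diamonds. Peroxisomal members range from -3.23 (Abcd2) to 4.83 (Acaa1b), and mitochondrial members from -0.67 (Acadl) to 2.60 (Acaa2).

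The median log2 difference between the tissues (liver minus fat) was 2.02 over the peroxisomal members, with a range of -3.23 to 4.83, and 0.29 over the mitochondrial members, with a range of -0.67 to 2.60. After median-of-ratios scaling these medians were 2.71 and 1.001. Acaa1b was 4.83 ± 0.09 (SE) log2 units higher in liver, at 1781 and 1858 FPKM against 62.1 and 64.1 FPKM. Crot followed with 3.88 ± 0.11, at 253 and 301 FPKM in liver and 17.3 and 18.4 FPKM in fat, and Decr2 with 3.44 ± 0.09, at 128 and 120 against 9.97 and 11.01 FPKM. Abcd3 (2.12), Pex11a (1.91), Acaa1a (1.16) and Acot8 (0.54) were also higher in liver, each with an adjusted p of 0.00401 or less. The thioesterases Acot3 and Acot4 were at no more than 1.43 FPKM in fat.

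The import transporters were divided by tissue. Abcd2 was at 92.2 and 87.8 FPKM in WT fat and 11.7 and 6.45 FPKM in WT liver (-3.23 ± 0.26, adjusted p = 2.89e-04), and Abcd3 was at 39.2 and 41.4 FPKM in fat and 174 and 183 FPKM in liver (adjusted p = 3.03e-05). Crat was the other member that was higher in fat on both scales, at 63.9 and 62.8 FPKM against 31.2 and 27.8 FPKM (-1.08 ± 0.09, adjusted p = 3.62e-04). The transcripts for acetyl and octanoyl transfer, Crat and Crot, lay in opposite orders in the 2 tissues.

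Among mitochondrial members Acaa2 was the most liver-weighted, with 634 and 705 FPKM in liver and 113 and 107 FPKM in fat (2.60 ± 0.10, adjusted p = 2.64e-05). Cpt1a (1.53 ± 0.21, adjusted p = 0.00176), Etfdh (1.18), Acadvl (1.12), Eci2 (0.95), Hadha (0.63), Eci1 (0.54) and Slc25a20 (0.43) were also higher in liver. Acadl, Acadm, Hadhb, Decr1 and Etfb were higher in fat by FPKM (-0.67 to -0.24). After median-of-ratios scaling all but Acadl were higher in liver (0.34 to 0.47) and Acadl did not pass (0.04, adjusted p = 0.765), so no direction can be given for these 5. Cpt2 and Etfa differed by only -0.02 and 0.04 by FPKM. The 2 subunits of the trifunctional protein did not keep one ratio: Hadha was at 123 FPKM in both livers and 81.4 and 76.4 FPKM in fat, and Hadhb was at 143 and 151 FPKM in liver and 197 and 183 FPKM in fat.

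Promoters were searched for a PPAR response element, since PPARα regulates many genes of this pathway. The motif was a direct repeat of AGGTCA with 1 base between the copies, read on both strands with at most 2 mismatches outside the spacer, in RefSeq windows (GRCm38.p6) of 300 bases that reach from 250 before to 50 after the start site. A window was found for 26 of the 32 members. No member held an exact copy, and 4 held one with 2 mismatches (Echs1, Etfa, Slc25a20 and Acot4), which is 14.3% of 28 member windows against 3.86% of all 32851 windows. The matches of Echs1 (chr7:140116478-140116518, minus strand), Etfa (chr9:55512294-55512334, plus strand) and Acot4 (chr12:84038352-84038392, minus strand) are shown with their flanks, the match in capitals, so that they can be compared with the repeat.

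Echs1: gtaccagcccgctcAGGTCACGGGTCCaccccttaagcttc
Etfa: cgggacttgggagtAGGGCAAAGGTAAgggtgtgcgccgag
Acot4: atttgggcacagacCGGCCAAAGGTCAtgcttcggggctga

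In liver none of the 4 genes with a match passed the test between genotypes, with log2 fold changes of -0.13 for Echs1, -0.10 for Etfa, -0.28 for Slc25a20 and -0.27 for Acot4. The windows of Hadh and Crot held no match, and no window was at hand for Abcd2.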

How the data were processed

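The authors deposited 1 StringTie 1.3.3b file per library, with coverage, FPKM and TPM for 36780 RefSeq transcripts of mm10. Per the labels, reads had been aligned with HISAT2 and handled with SAMtools (versions not given in the sources used here). These are estimates scaled to depth, not counts, so count tests were not used.

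The transcripts of a gene were added up in FPKM. A gene was tested when FPKM was at least 1 in at least 2 libraries of the comparison. log2(FPKM + 1) was fitted with limma 3.58.1 in R 4.3.3 (eBayes with a variance trend), each tissue alone, with Benjamini-Hochberg adjustment over every gene tested. The procedure was run on simulated data with a common spread for all genes and no outlying library, which is simpler than these data. The members, gene lists and named-gene rule were chosen with earlier results of these data known. The rule names all 32 members, up to 4 genes of each further list past either threshold, and a few enzymes and regulators, of which Ehhadh, Ppara and Ppargc1a are given. Some genes of these lists are not reported here. Acsl1, Acadsb, Acad10 and Pecr lie outside it and were named, after their values were seen, to complete small counts. Depth was the ratio of coverage to FPKM, and the lowest mean coverage of a member in liver was 6.31 (Cpt1b). The labels do not say that replicates were separate mice beyond their numbering, so p measures the spread between these samples. Python 3.11.15, pandas 2.3.3 and matplotlib 3.10.9 were used.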

Additional observations from a re-analysis of the deposited data

Results flagged for a closer look

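Etfb, Acot2 and Crat were singled out because their MKRN1-null libraries lay on opposite sides of WT in the 2 tissues with no overlap. How many of all genes did the same was not counted, so this is not a trait particular to these members. Without overlap, 57.5% of all tested genes were lower and 11.8% higher in liver. In fat the shares were 36.1% and 9.03%. The interaction (liver minus fat) was -1.41 for Acot2 (limma adjusted p = 0.584), -1.38 for Crat (adjusted p = 0.587) and 0.41 for Etfb (adjusted p = 0.778), so the difference itself did not pass for any of the 3. Etfb was at 270 and 283 FPKM in WT and 310 and 301 FPKM in MKRN1-null livers, and at 333 and 356 FPKM in WT fat and 326 and 251 FPKM in MKRN1-null fat. Groups had 2 libraries each, so no test for a single outlying library within a group could be made.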

How the results depend on the processing

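Of the 20 mitochondrial members in liver, 1 passed. The number was 8 with TPM, 0 with all 8 libraries in one fit, 0 after quantile normalization, 2 with the replicate block and 0 to 0 when one library was left out. After median-of-ratios scaling it was again 1, but Eci2 in place of Hadh. Of the 12 peroxisomal members in liver, 2 passed. The number was 1 with a filter at an FPKM of 5, 4 with TPM, 0 with all 8 libraries in one fit, 0 after median-of-ratios scaling, 0 without a filter, 1 without the variance trend, 5 by the study limits and 0 to 3 when one library was left out, 0 being without MKRN1-null replicate 2. In fat no mitochondrial member passed, 1 with the replicate block, and 0 to 11 when one library was left out. No peroxisomal member passed in fat, and 0 to 9 did when one library was left out. For the interaction the main number was 0, with 2 by the study limits and 0 to 7 when one library was left out. In fat and in the interaction every pass with a library left out came without MKRN1-null fat replicate 1. Between WT liver and WT fat 28 members passed, against 17 by the study limits.

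Same-numbered libraries deviated from their group means with correlations of 0.01 (liver), 0.11 (fat), 0.06 (WT tissues) and, in the interaction, 0.08 (WT) and 0.09 (MKRN1-null). With 2 pairs each this cannot show whether they are paired. The labels do not say whether liver and fat of one number came from one mouse, and the interaction and WT tissue tests treated them as independent. The replicate block gave 2 mitochondrial (Cpt1b and Acot2) and 3 peroxisomal members (Abcd2, Pex11a and Crat) in liver, with Hadh and Crot lost (adjusted p = 0.0578 and 0.0534). In fat it gave 1 and 0, where the 1 was Cpt1b (limma adjusted p = 0.00193). Cpt1b in MKRN1-null against WT fat was at 2.88 against 5.20 FPKM in replicates 1 and at 72.2 against 3.78 FPKM in replicates 2. These pairs go in opposite directions, so that pass shows no common effect of genotype. The block gave 0 for the interaction and 25 between the WT tissues.

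After median-of-ratios scaling the difference between WT liver and WT fat changed sign for Cpt2 (0.69), Acadl (0.0404), Acadm (0.45), Hadhb (0.34), Decr1 (0.47) and Etfb (0.40). Acot3 in liver was 0.30 and ranged from -1.22 without WT replicate 2 to 1.81 without WT replicate 1. Its sign thus depended on which WT library was kept, and the peroxisomal passes in liver with one library left out were not all in one direction. Causes were not tested.

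Depth limits scarce members such as Cpt1b and Acot3. With 2 libraries per group, members just above the threshold cannot be told from those just below it.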
